A study of Mus musculus with 52 samples.

Results

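The libraries described here come from conventional type 1 dendritic cells (cDC1) that received prostaglandin E2 (PGE2) after a pair of receptor antagonists labelled as blocking EP2 and EP4. The 4 libraries of that group were set against the 4 libraries of cells given PGE2 alone, so that 8 of the 52 libraries of the series carry the comparison, and they were chosen by their labels. All groups used here began as C57BL/6 marrow cells, cultured for 14 days with FLT3L and GM-CSF and then sorted for CD103. PGE2 was given at 100 ng/ml for 4 h. The combined antagonists were added at 5 uM each, 30 min before PGE2. Used beside them were untreated cells at 4 h, cells given an antagonist of EP1, EP2 or EP4 singly at the same dose before PGE2, and cells kept for 4 h in conditioned medium (CM) of BRAFV600E melanoma cells, either control CM or CM of cells lacking Ptgs1 and Ptgs2 (here called PGE2-deficient CM).

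The labels of the combined group conflict. Its title and description name antagonists of EP2 and EP4, while its treatment entry names SC-19220 and L161,982. SC-19220 is the compound that the treatment entries give for the EP1 antagonist group, L161,982 is that of the EP4 antagonist group, and the EP2 antagonist group carries PF-04418948. The group is called the combined antagonists below, and its values are set beside the EP1, EP2 and EP4 antagonists given singly for that reason. There was no group with antagonists but without PGE2, and the labels name no vehicle for the untreated or PGE2 groups, so effects of the compounds by themselves and block of the receptors cannot be told apart. The labels letter the biological replicates A to D and do not say whether these were separate animals or cultures. The p-values therefore reflect the scatter among these libraries only, which could be technical in origin.

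PGE2 is a lipid mediator made by cyclooxygenases and acts on 4 G protein-coupled receptors, EP1 to EP4. EP2 and EP4 couple to the stimulatory G protein, raise cyclic AMP (cAMP) and thereby activate protein kinase A and the transcription factor CREB, whose targets include Crem, the Nr4a family and cAMP phosphodiesterases that limit the signal. cDC1 depend on the transcription factors IRF8 and BATF3, cross-present antigen to CD8 T cells and carry the chemokine receptor XCR1.

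The combined libraries held 317756 to 438491 counts, the PGE2 libraries 174587 to 324085 and the untreated libraries 54107 to 331055, where 1 untreated library (A) was shallow, as was 1 EP4 antagonist library (A, 42666 counts). The summed level of 23 cDC1 identity genes ran from 12280 to 12840 CPM (counts per 1000000 of the TMM-scaled library total) in the combined group, 13600 to 15030 CPM with PGE2 and 13490 to 14490 CPM in untreated cells. All combined libraries were the lowest in that sum. Plet1, a member of the list that PGE2 raised, averaged 5972 CPM with PGE2 and 1389 CPM with the combined antagonists. Its fall exceeded the gap between the PGE2 and combined sums, so the sum does not measure cDC1 content between PGE2 and the combined antagonists. Plet1 was on average no higher in untreated cells than in the combined group. The source of the gap to the untreated sums was not tested. No gene of the list was without counts in any of the 3 groups. For 12 cDC2 markers the sum was 43.7 to 72.8 CPM in the combined group, 56.6 to 163 CPM with PGE2 and 59.3 to 105 CPM untreated, and Sirpa, Clec10a, Mgl2, Clec4a4, Esam and Cd209d had no count there. Macrophage and monocyte markers (15 of 16 in the table) summed to 1410 to 1818 CPM in the combined group, 1003 to 1270 CPM with PGE2 and 1014 to 1561 CPM untreated, while Adgre1, Mertk, C1qa, C1qc, Cd163 and Fcgr4 had no count in the combined group. For 12 plasmacytoid dendritic cell markers the sums were 264 to 323 CPM, 184 to 254 CPM and 245 to 358 CPM in the same order. In these bulk libraries fewer cells of a type and less RNA per cell cannot be told apart. In untreated library A 3 counts made 55.45 CPM of its unscaled total. The untreated ranges given below for low genes can therefore rest on very few counts of that library.

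With the combined antagonists, several genes of cAMP signalling, of myeloid receptors and of NF-kB signalling were lower than with PGE2 alone, and several of cDC1 identity and a few of the lysosome were higher. Of 5754 genes tested, 548 were called between the combined antagonists and PGE2, which is 9.52%. There were 242 genes called higher (4.21%) and 306 called lower (5.32%), and 110 of them, 31 higher and 79 lower, differed by at least 1.5 on the log2 scale. Scaled by library totals alone, 384 genes were higher and 259 lower, with an all-gene median of 0.09 in place of 0.01. Against untreated cells the same 4 libraries differed in 46 genes (0.799%), 35 higher and 11 lower (19 and 10 by library totals), with 656 at an unadjusted p under 0.05. PGE2 alone differed from untreated cells in 493 genes (8.57%), 300 higher (5.21%) and 193 lower (3.35%). By library totals the balance of that comparison turned, with 237 higher and 332 lower and an all-gene median of -0.13. Each pair of these comparisons shares libraries, so the counts are given side by side.

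A per-library view used genes chosen in other libraries. The 227 genes called between both conditioned media (3.95%), 140 higher (2.43%) and 87 lower (1.51%) with control CM (120 and 121 by library totals), were averaged into a response score that is 0% at the untreated mean and 100% at the PGE2 mean. The 4 combined libraries scored 14.3% to 22.2%, with a mean of 18.5 ± 3.94% (SD, n = 4), against 95.8% to 103% with PGE2 and -4.65% to 9.87% in untreated cells. The combined group thus lay apart from both, below every PGE2 library and above every untreated library. With the EP2 antagonist the score was 69.2 ± 3.76% (65.6% to 74.2%), with the EP4 antagonist 89.1 ± 1.13% and with the EP1 antagonist 100 ± 1.25%. PGE2-deficient CM scored 13.5 ± 23.5%, where 1 library (B) stood at 48.4%. With that library left out of the choice of genes, an alternative added after seeing the data, the combined group scored 17.8 ± 3.64%.

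**Figure D1:**
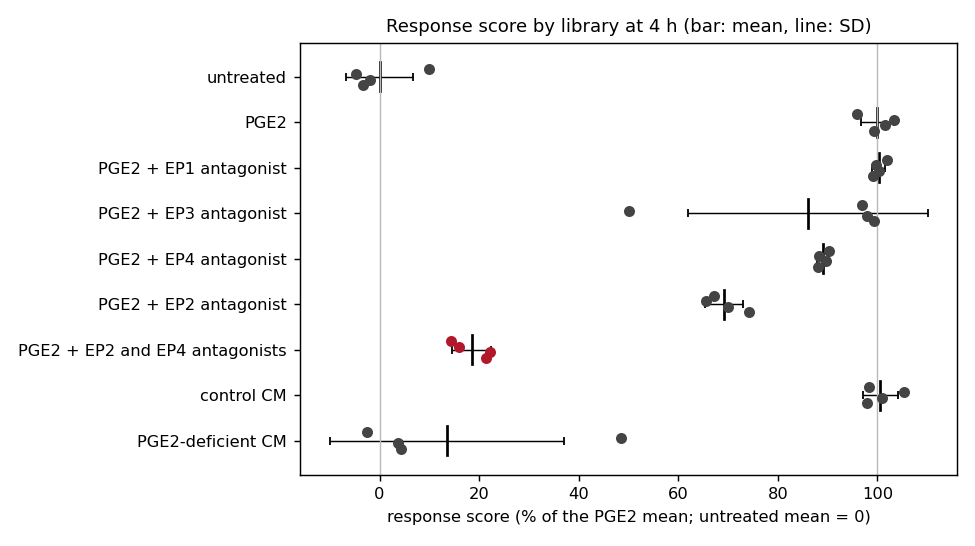
Response score of each library at 4 h by group, in percent, on an axis where untreated cells average 0% and PGE2 100%. Each point is a library, the upright bar the mean and the line the SD (n = 4). The combined antagonist libraries (red) sit between 14.3% and 22.2%, below all libraries of each single antagonist.

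Most of the cAMP targets that could be tested were lower with the combined antagonists. Of 23 genes on the list 10 passed the filter on low counts, 8 of these were called lower than with PGE2 and none higher, with a median log2 fold change of -1.67 against 0.01 over all genes tested. Over all genes tested 5.32% were called lower and 4.21% higher, which is the background for this list and the later ones. A gene can pass that filter only through groups that received PGE2, so the counts describe those 10 and not the whole list. The 8 were Crem, Dusp1, Fos, Junb, Nfil3, Nr4a2, Pde3b and Pde4b. Against untreated cells none of the 10 was called by edgeR or DESeq2 and none had an unadjusted p under 0.05, with a median of 0.35.

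Nr4a2, which encodes a nuclear receptor induced early by cAMP (chromosome 2, 57106830 to 57124003, minus strand, GRCm38), stood at 56.6, 69.6, 65.7 and 54.4 CPM in the PGE2 libraries A to D and at 2.20, 0, 14.6 and 2.47 CPM in the combined libraries. The groups did not overlap, and library C was the highest of the combined group. The log2 fold change was -3.63 ± 0.53 (SE, adjusted p = 3.16e-08). Crem, whose products regulate CREB target genes, stood at 195, 225, 197 and 133 CPM with PGE2 and at 11.0, 28.1, 20.4 and 34.5 CPM with the combined antagonists, against 16.4, 0, 9.37 and 5.72 CPM untreated. All combined libraries were below all PGE2 libraries, and they overlapped the untreated ones only through untreated library A, which was shallow. The change was -3.02 ± 0.45 (adjusted p = 1.30e-05).

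Pde4b, a phosphodiesterase that degrades cAMP (chromosome 4, 102087543 to 102607259, plus strand), stood at 252, 143, 178 and 115 CPM with PGE2 and at 24.2, 31.2, 23.3 and 39.4 CPM with the combined antagonists. The highest combined library was under the lowest PGE2 library, and the untreated libraries at 17.2 to 32.7 CPM covered the same range as most of the combined ones. The change was -2.53 ± 0.28 (adjusted p = 8.19e-14). Nfil3, a basic leucine zipper repressor gene, fell from 105 to 17.7 CPM (-2.58 ± 0.42), and Junb, an AP-1 subunit gene, from 703 to 368 CPM (-0.93 ± 0.13). Fos, its AP-1 partner, fell by 1.88 ± 0.43 on the log2 scale. Calls were less firm for 2 members. Dusp1, a MAP kinase phosphatase gene (49.5 to 17.8 CPM, -1.46 ± 0.42, adjusted p = 0.0109), had an adjusted p of 0.102 without PGE2 replicate D and 0.0742 without combined replicate A. Pde3b, another phosphodiesterase gene (-1.27 ± 0.37, adjusted p = 0.0138), had 0.0682 without PGE2 replicate B, 0.0557 without combined replicate A and 0.0648 without combined replicate C. Rgs2, a regulator of G protein signalling on the same list, did not pass (0.48 ± 0.23, adjusted p = 0.212).

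The promoters of these genes are shown because CREB binds the letters TGACGTCA, the cAMP response element, and also its 5-base core TGACG. Windows of 250 bases before the RefSeq start (GRCm38.p6) were searched on both strands, with overlapping matches counted. Of the 8 called genes 6 had a window, and all 6 held at least 1 core. Over all 32851 windows 17.8% held the core and 1.55% the full element, while among the 4404 tested genes with a window 33.7% had a core and 3.34% the full element in at least 1 window. The 3 printed here are the genes whose only window meets no annotated exon, with cores of either strand in capitals, read 5′ to 3′ on the gene's strand. Nr4a2 (chr2:57124004-57124253, minus strand) held 4 cores starting 200, 144, 123 and 111 bases before the start. Fos (chr12:85473640-85473889, plus strand) held 2, at 129 and 66 bases. Junb (chr8:84978749-84978998, minus strand) held 1, at 106 bases.
Nr4a2: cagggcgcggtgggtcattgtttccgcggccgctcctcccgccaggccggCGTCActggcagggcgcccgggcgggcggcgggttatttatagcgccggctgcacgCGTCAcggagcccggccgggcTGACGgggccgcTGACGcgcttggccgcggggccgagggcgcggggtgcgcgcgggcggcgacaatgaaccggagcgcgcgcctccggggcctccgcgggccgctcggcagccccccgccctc
Fos: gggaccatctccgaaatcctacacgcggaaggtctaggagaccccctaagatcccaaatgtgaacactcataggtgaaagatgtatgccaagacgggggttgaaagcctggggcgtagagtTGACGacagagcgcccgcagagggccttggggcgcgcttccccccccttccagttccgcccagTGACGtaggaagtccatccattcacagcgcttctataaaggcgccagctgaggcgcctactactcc
Junb: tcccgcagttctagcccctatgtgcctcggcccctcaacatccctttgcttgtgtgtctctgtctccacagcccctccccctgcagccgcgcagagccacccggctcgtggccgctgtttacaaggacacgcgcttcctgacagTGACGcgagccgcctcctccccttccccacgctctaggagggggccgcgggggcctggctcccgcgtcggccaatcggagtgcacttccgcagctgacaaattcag
The full element was found in the window of Dusp1 alone among the 6. Nfil3 held 1 core and Pde4b held 1 in 1 of its 4 windows. These matches are letters in a window and were not tested for binding. Of the genes called lower 234 had a window, and 30.8% of these held a core and 1.28% the full element. Of the genes called higher 184 had a window, with 24.5% and 2.72%. Both groups were thus under the 33.7% and 3.34% of the tested genes. These shares were not tested, and a window was matched by symbol for only 4404 of the 5754 genes tested.

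Among the prostaglandin receptors, those for the antagonists' own targets were close to the limit of detection. Ptger2, which encodes EP2, stood at 24.2, 15.6, 37.9 and 17.3 CPM in the combined libraries and at 15.4, 36.8, 21.9 and 60.4 CPM with PGE2. These ranges overlapped, and the change of -0.42 (95% interval -1.28 to 0.43) did not pass the test. Ptger4, which encodes EP4, and Ptger1, which encodes EP1, were too low to be tested, at means of 11.2 and 0.780 CPM in the combined group. Ptger3, the gene of the inhibitory receptor EP3, was at 57.2, 59.3, 64.1 and 64.1 CPM with the combined antagonists and at 25.7, 36.8, 21.9 and 24.2 CPM with PGE2. All combined libraries were higher, with a change of 1.16 ± 0.36 (adjusted p = 0.0204), and the adjusted p was 0.105 without PGE2 replicate C, 0.0507 without A and 0.0556 without D. Hpgds, the prostaglandin D2 synthase gene, rose from 56.3 to 130 CPM (1.18 ± 0.27, adjusted p = 0.000681). Of 8 tested genes of the list these 2 were called higher and none lower.

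Regulators of G protein signalling moved in both directions, with 2 of 14 tested called higher and 2 lower (4.21% and 5.32% over all genes tested). Ramp3, a receptor activity-modifying protein gene (chromosome 11, 6658521 to 6677475, plus strand), stood at 432, 401, 407 and 363 CPM with PGE2 and at 11.0, 24.96, 20.4 and 32.04 CPM with the combined antagonists. The combined libraries fell within the untreated range of 11.4 to 81.8 CPM or just under it, a range that includes the shallow library A. The change of -4.18 ± 0.50 (adjusted p = 4.20e-07) was among the largest. Its relative Ramp1 went the other way, at 30.8, 31.2, 40.8 and 44.4 CPM against 0, 8.19, 6.26 and 18.1 CPM with PGE2 (2.21 ± 0.59, adjusted p = 0.00493). Rgs9, which speeds up the turning off of G proteins, had 19 counts over the PGE2 libraries and none in the combined or untreated libraries, so that it was at least 10.4-fold lower than with PGE2, taken against 3 counts over the whole group. Rgs10 rose from 578 to 935 CPM (0.69 ± 0.12, adjusted p = 6.51e-06).

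**Figure D2:**
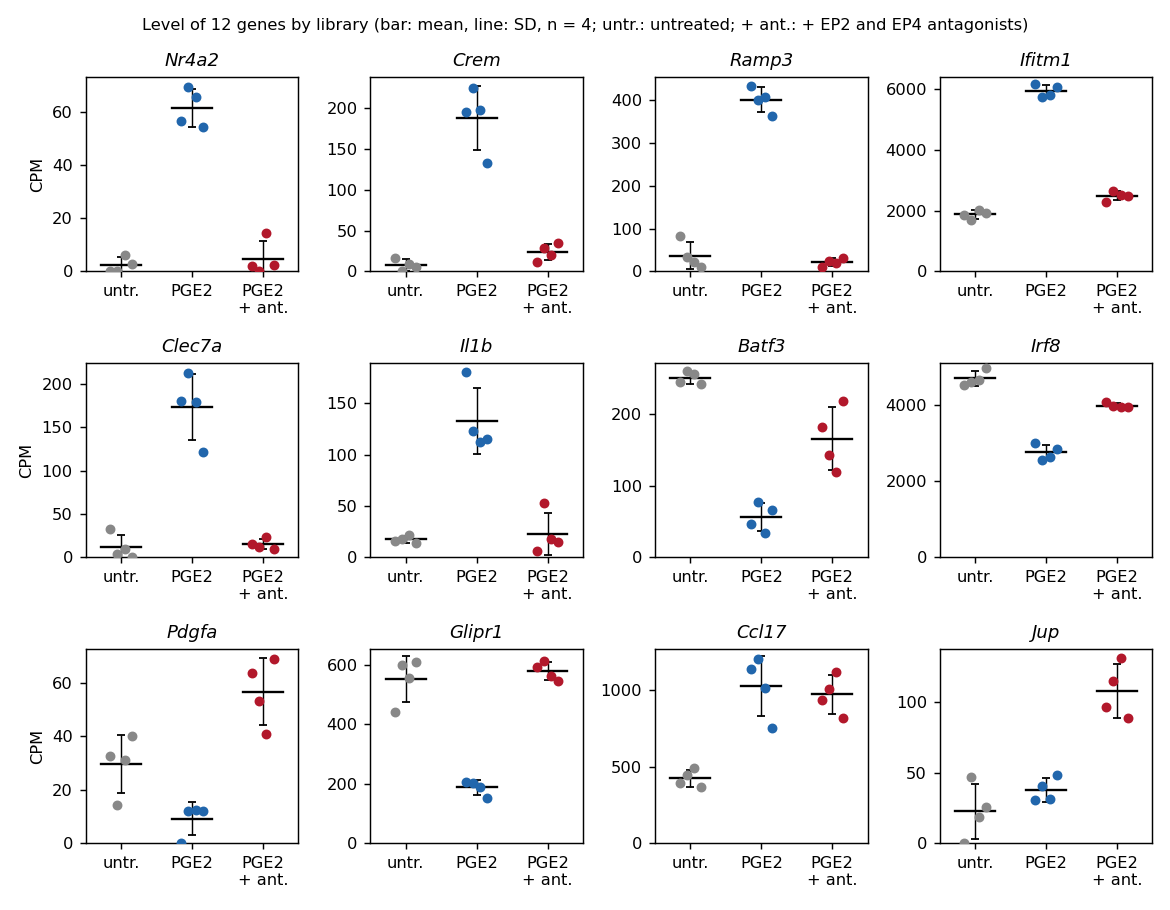
Level of 12 genes in CPM by library for untreated cells (untr.), PGE2 alone and PGE2 with the combined antagonists (+ ant.), where points are libraries, bars means and lines SDs (n = 4). Nr4a2, Crem, Ramp3, Ifitm1, Clec7a and Il1b were lower with the antagonists than with PGE2 and Batf3, Irf8, Pdgfa and Glipr1 higher, Ccl17 stayed at 821 to 1121 CPM, and Jup at 88.7 to 131 CPM was above both other groups.

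A list of myeloid surface receptors and PGE2-induced adaptors held 6 of the 12 largest decreases. It was assembled with earlier results of these data known, and 9 of its 10 tested members were called lower, with a median of -3.20. Clec7a, the gene of the beta-glucan receptor dectin-1 (chromosome 6, 129461591 to 129472779, minus strand), stood at 180, 213, 178 and 121 CPM with PGE2 and at 15.4, 12.5, 23.3 and 9.86 CPM with the combined antagonists. Every combined library was under the lowest PGE2 library, and untreated cells spanned 0 to 32.7 CPM. The change was -3.50 ± 0.51 (adjusted p = 1.19e-05). The C-type lectin genes Clec4n (-3.21 ± 0.55) and Clec4d (-2.22 ± 0.43) also fell. Cd93, which encodes a transmembrane lectin-like receptor, stood at 66.9, 40.9, 62.6 and 54.4 CPM with PGE2 and at 0, 3.12, 2.91 and 0 CPM with the combined antagonists, where 2 libraries thus held no count. Plaur, the urokinase receptor gene, fell from 46.8 to 4.69 CPM (-3.20 ± 0.62, adjusted p = 7.54e-05), close to the untreated mean of 5.52 CPM.

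For Dab2, an adaptor of endocytosis, the levels were 97.7, 81.9, 37.5 and 42.3 CPM with PGE2 and 8.80, 6.24, 2.91 and 7.39 CPM with the combined antagonists (-3.20 ± 0.47, adjusted p = 1.91e-08). Sdcbp2, a PDZ adaptor gene, had no count in untreated cells, 66.9, 94.1, 65.7 and 72.5 CPM with PGE2 and 2.20, 12.5, 11.7 and 2.47 CPM with the combined antagonists. It was low in all 4 combined libraries without being absent from any, on 10 counts in all. That is at least 2.20-fold above the untreated group when 3 counts are taken for that group, a bound that leaves out the counting error of the combined group. None of the 10 tested genes of this list was called against untreated cells by edgeR or DESeq2. The protease inhibitor gene Ctla2a fell from 178 to 16.3 CPM (-3.42 ± 0.47) and the actin-severing protein gene Scin from 487 to 60.8 CPM (-3.00 ± 0.37). Actn1, an actin crosslinker gene, was the member that did not pass (-0.23, 95% interval -0.61 to 0.14). Map1b, a microtubule-associated protein gene, had 30 counts over the PGE2 libraries and none in the combined libraries, at least 16.5-fold lower on the same basis.

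All 3 tested Ifitm genes, which encode interferon-induced membrane proteins that restrict virus entry and can share reads with each other, were lower. Ifitm1 (chromosome 7, 140967221 to 140969825, plus strand) had the lowest adjusted p in this comparison. Its levels were 6182, 5763, 5830 and 6067 CPM with PGE2, 2290, 2652, 2514 and 2499 CPM with the combined antagonists and 1865, 1704, 2030 and 1917 CPM in untreated cells. The combined libraries were below every PGE2 library and above every untreated one. The change from PGE2 was -1.26 ± 0.11 (adjusted p = 2.26e-19), while the 0.40 ± 0.11 above untreated cells did not pass (adjusted p = 0.0659). Ifitm2 fell by 1.34 ± 0.13 and Ifitm3 by 1.47 ± 0.20. Genes with a similarly small spread were Syngr2, a vesicle membrane protein gene, from 1627 to 656 CPM, Cdkn1a, the gene of the cell cycle inhibitor p21, from 1120 to 460 CPM, and Rab8b, a small GTPase gene, from 310 to 82.9 CPM.

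Growth factor receptors had 4 of 6 tested members lower and none higher, where 5.32% of all genes tested were called lower. Csf2rb, the shared beta chain of the GM-CSF receptor, fell from 2460 to 1085 CPM (-1.18 ± 0.12, adjusted p = 3.22e-13), and its paralog Csf2rb2, which can share reads with it, by 0.84 ± 0.13. Kit, the stem cell factor receptor gene, was at 41.1, 53.2, 31.3 and 42.3 CPM with PGE2 and at 6.599, 9.36, 5.83 and 2.47 CPM with the combined antagonists (-2.72 ± 0.54). Untreated cells spread from 0 to 49.1 CPM across both, on 12 counts in all. Flt3, the receptor of the growth factor in the culture, was at 303, 242, 257 and 212 CPM with PGE2 and at 185, 162, 140 and 141 CPM with the combined antagonists. The combined libraries were below all PGE2 libraries and also below all untreated libraries, which ran from 195 to 253 CPM. The change from PGE2 passed (-0.69 ± 0.17, adjusted p = 0.00280), and that from untreated cells of -0.53 did not (adjusted p = 0.158).

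Maturation and NF-kB genes fell in part. Of 14 maturation and costimulation genes tested 6 were called lower and none higher, with a median of -0.52. Of 17 NF-kB subunits, inhibitors and targets 9 were lower and none higher, with a median of -0.83. Of these 9, Nfkbib lost its call in 7 of 16 alternatives and Bcl3 in 2 of 15. Relb counts in both lists, and Il1b counts in the NF-kB list and in the cytokine list below. Cd83, a maturation marker gene, stood at 334, 274, 319 and 218 CPM with PGE2 and at 88.0, 96.7, 117 and 81.3 CPM with the combined antagonists. The groups were well apart (-1.60 ± 0.21, adjusted p = 1.72e-09). The cytokine signalling suppressor genes Socs2 (-1.98 ± 0.50) and Cish (-0.94 ± 0.19) and the NF-kB subunit gene Relb (-1.09 ± 0.29) were lower too. The costimulatory gene Cd86 did not pass (-0.39, 95% interval -0.78 to -0.01, adjusted p = 0.227), nor did Ccr7, the lymph node homing receptor gene (-0.64 ± 0.24, adjusted p = 0.0812). In the NF-kB list Traf1, a TNF receptor adaptor gene, fell by 1.64 ± 0.27, the inhibitor genes Nfkbie by 1.77 ± 0.29 and Nfkbia by 0.83 ± 0.16, and the subunit gene Nfkb2 by 1.41 ± 0.29. Among 14 apoptosis genes 5 were lower, all of them encoding proteins that protect against cell death. Bcl2l1 fell by 1.10 ± 0.26 and Mcl1 by 0.62 ± 0.15, and the paralogs Bcl2a1a, Bcl2a1b and Bcl2a1d, which can share reads, each lost the call in at least 4 of the alternatives run.

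Cytokine genes did not move together, with 2 of 12 tested called lower and none higher (median -0.38), where 5.32% of all genes tested were called lower. Il1b, the interleukin-1 beta gene (chromosome 2, 129364570 to 129371139, minus strand), stood at 180, 123, 113 and 115 CPM with PGE2 and at 6.599, 53.0, 17.5 and 14.8 CPM with the combined antagonists. Library B was the highest of the combined group and still under every PGE2 library (-2.59 ± 0.33, adjusted p = 1.70e-10). Cxcl16, a chemokine gene, fell from 499 to 313 CPM (-0.69 ± 0.14). Ccl17, the gene of a ligand of CCR4 (chromosome 8, 94810453 to 94812036, plus strand), stood at 1137, 1203, 1014 and 755 CPM with PGE2 and at 937, 1008, 1121 and 821 CPM with the combined antagonists, against 393, 449, 490 and 369 CPM in untreated cells. The combined libraries lay inside the PGE2 range and were all above the untreated libraries. The difference from PGE2 was -0.09 (95% interval -0.35 to 0.17) and that from untreated cells 1.17 ± 0.14 (adjusted p = 1.93e-09), and the call against untreated cells was kept in all 16 alternatives run. Il12b, a subunit gene of interleukin-12, differed by -0.08 with a wide interval of -1.12 to 0.95.

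Genes of cDC1 identity were in part higher with the combined antagonists, with 7 of 21 tested called higher and 3 lower. Batf3, which cDC1 need for their development (chromosome 1, 191097847 to 191108945, plus strand), stood at 183, 144, 119 and 219 CPM with the combined antagonists and at 46.3, 77.8, 34.4 and 66.5 CPM with PGE2, against 243 to 261 CPM in untreated cells. All combined libraries lay between the other 2 groups. The change from PGE2 was 1.61 ± 0.25 (adjusted p = 1.72e-07) and that from untreated cells -0.59 ± 0.20, which did not pass (adjusted p = 0.153). Irf8, the lineage factor gene (chromosome 8, 120736358 to 120756694, plus strand), stood at 4085, 3959, 3935 and 3931 CPM against 2988, 2550, 2628 and 2846 CPM with PGE2 and 4531 to 4972 CPM untreated, again between both (0.53 ± 0.11, adjusted p = 6.81e-05). Xcr1, the chemokine receptor gene of cDC1, stood at 224, 200, 207 and 131 CPM against 134, 106, 141 and 121 CPM with PGE2. The ranges overlapped through library D, and the change of 0.59 (95% interval 0.08 to 1.11) did not pass (adjusted p = 0.155).

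The lysosomal enzyme gene Naaa rose from 515 to 896 CPM (0.80 ± 0.15) and stayed under the untreated mean of 1275 CPM (-0.56 ± 0.14, adjusted p = 0.0242, a call lost in 7 of 16 alternatives). Ppt1, a lysosomal thioesterase gene, rose by 1.34 ± 0.24 and the surface glycoprotein gene Cd24a by 0.60 ± 0.13. The scavenger receptor gene Cd36 and Snx22 were also called higher, where Cd36 had an adjusted p of 0.0888 without PGE2 replicate C and Snx22 lost its call in 8 of 16 alternatives. Itgae, which encodes the CD103 used for sorting, did not pass against PGE2 (-0.10, 95% interval -0.40 to 0.19). Against untreated cells DESeq2 called Itgae and Naaa, and edgeR also called 2 of the 21 tested genes. Itgae was lower than in untreated cells, with 487 counts over the combined libraries and 456 over the untreated ones, which held fewer counts in all. Of the 3 lower members, Plet1, a surface protein gene, stood at 6028, 5681, 6070 and 6109 CPM with PGE2 and at 1249, 1248, 1529 and 1528 CPM with the combined antagonists, near the untreated range of 926 to 1407 CPM. It is on the list as a surface gene of the cells, and it moved with the PGE2-induced genes (-2.10 ± 0.24, adjusted p = 1.45e-07). The others were Nfil3 and Flt3, given above.

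**Figure D3:**
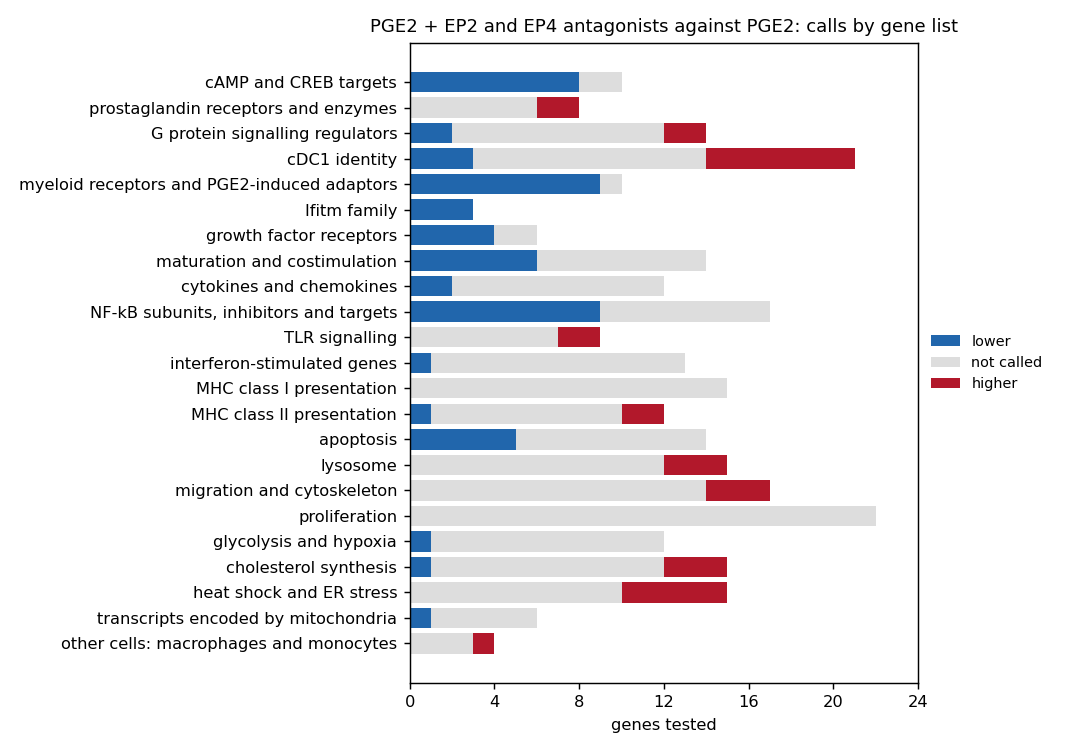
Number of tested genes called lower (blue), not called (grey) and called higher (red) in the combined antagonists against PGE2, by gene list with at least 3 tested genes. The cAMP list has 8 of 10 genes lower, while the proliferation and MHC class I lists have no call by edgeR.

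Other genes were also higher with the combined antagonists than with PGE2. Glipr1, a gene of the secreted CAP protein family, stood at 594, 612, 562 and 547 CPM with the combined antagonists and at 206, 205, 191 and 151 CPM with PGE2. The lowest combined library was above the highest PGE2 library (1.61 ± 0.16, adjusted p = 4.73e-15), and the combined libraries overlapped the untreated ones at 442 to 609 CPM. Uap1l1 rose from 30.7 to 111 CPM (1.86 ± 0.32), and Bbs9, a gene of the ciliary BBSome complex, from 2.85 to 34.0 CPM (3.22 ± 0.74). Batf, a relative of Batf3, rose from 5.61 to 27.3 CPM and the semaphorin gene Sema4d from 7.95 to 47.0 CPM. Pdgfa, a growth factor gene, stood at 63.8, 53.0, 40.8 and 69.0 CPM against 0, 12.3, 12.5 and 12.1 CPM with PGE2 (2.51 ± 0.51), and all combined libraries were above the highest untreated library of 40.1 CPM, a difference that did not pass (0.94 ± 0.41, adjusted p = 0.335). Lmo2 and Sil1 were also called higher and depended on single libraries, with adjusted p of 0.139 without PGE2 replicate C and 0.0630 without combined replicate D for Sil1, and of 0.0549, 0.0855, 0.0862 and 0.0546 without PGE2 replicates A, B and D and combined replicate D for Lmo2.

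Of 15 lysosome genes tested 3 were called higher and none lower, where 4.21% of all genes tested were called higher and 5.32% lower. Psap, which encodes the saposin precursor, rose from 570 to 842 CPM (0.57 ± 0.13), while Grn, a progranulin gene (0.52 ± 0.15), had an adjusted p of 0.0715 without PGE2 replicate C and 0.0685 without combined replicate C. Cholesterol synthesis had 3 of 15 higher and 1 lower. Its members Fdps, a farnesyl diphosphate synthase gene, at 131 against 34.9 CPM (1.97 ± 0.31) and Pmvk (0.80 ± 0.20) rose, whereas Hmgcs1 was lower with a call lost in 8 alternatives. In the heat shock and ER stress list 5 of 15 were higher and none lower, all of them ER genes. Among these, Hspa5 lost its call in 7 of 16 alternatives and Herpud1 in 3 of 16. Manf, which encodes a secreted ER stress protein, stood at 488, 490, 556 and 451 CPM with the combined antagonists, 324, 225, 244 and 242 CPM with PGE2 and 294, 333, 287 and 315 CPM in untreated cells. The combined libraries were above all others of the 3 groups. The change was 0.95 ± 0.16 from PGE2 (adjusted p = 5.85e-07) and 0.67 ± 0.15 from untreated cells (adjusted p = 0.00855, and 0.0769 without untreated replicate C and 0.0571 without combined replicate C). Creld2, another ER stress gene, rose by 0.82 ± 0.13 from PGE2.

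In MHC class II presentation the peptide exchange genes H2-DMa (0.56 ± 0.12) and H2-DMb1 (0.69 ± 0.12) were higher and the protease gene Ctss lower (-0.50 ± 0.12), 3 of 12 tested. None of 15 MHC class I genes and none of 22 proliferation genes was called by edgeR, with 2 and 3 at an unadjusted p under 0.05, and DESeq2 called Pdia3 of the first list and no gene of the second. Of 13 interferon-stimulated genes only Gbp2 was called, lower at -0.84 ± 0.22, and of 9 TLR signalling genes Cd180 and Myd88 were called higher. Over all genes tested 5.32% were called lower and 4.21% higher. Cd180 lost its call in 8 alternatives, and Myd88 had an adjusted p of 0.168 without PGE2 replicate B, 0.0525 without PGE2 replicate C and 0.0856 without combined replicate D. Lyz2, a lysozyme gene that macrophages also express strongly, was the 1 of 4 tested macrophage and monocyte markers called, from 819 to 1147 CPM (0.48 ± 0.13), with an adjusted p of 0.0845 without PGE2 replicate D and 0.0566 without combined replicate C. It moved in the same direction as the lysosome genes above, and the part of other cells in that result was not tested.

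The genes chosen by the conditioned media come from libraries outside the comparison. Of the 140 that were higher with control CM, 116 were called lower with the combined antagonists than with PGE2 and none higher, with a median of -1.15. For 116 of the 140 all 4 combined libraries lay below all 4 PGE2 libraries, against 6.81% of all tested genes. Of the 87 genes lower in control CM, 49 were called higher and none lower, with a median of 0.78, and for 50 all 4 combined libraries lay above all 4 PGE2 libraries, against 6.92% of all tested genes. With the 1 deviating PGE2-deficient CM library (B) left out of the choice, 148 of 194 genes were called lower and 59 of 112 higher.

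**Figure D4:**
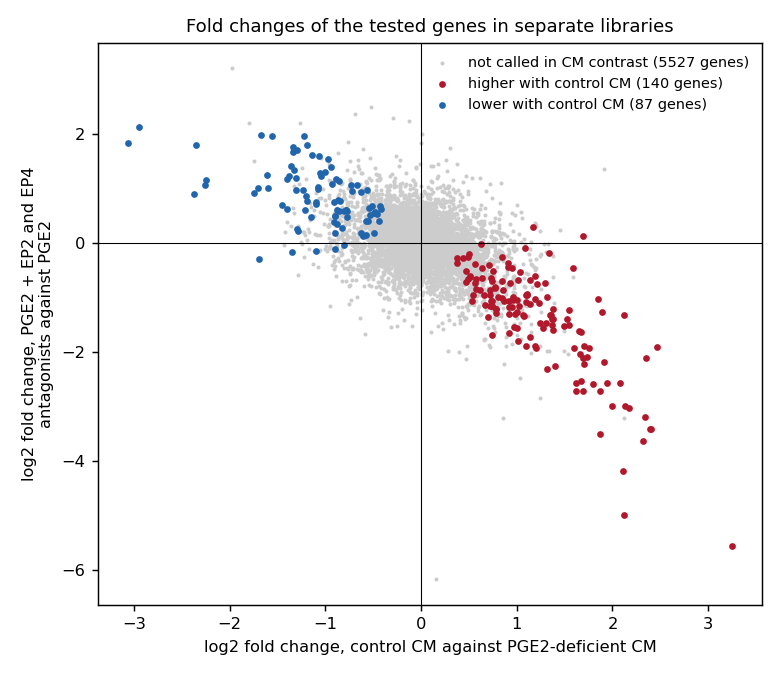
Log2 fold change of every tested gene in control CM against PGE2-deficient CM (x axis) and in the combined antagonists against PGE2 (y axis), which use separate libraries. Of the 140 genes higher with control CM (red) 116 were called lower on the y axis, and of the 87 lower with control CM (blue) 49 were called higher.

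By group means most of these genes stayed short of the untreated level, while few of them were called against untreated cells. The position of a mean is a description and not a test of single genes. The untreated and PGE2 means stood in the same order as the conditioned media for 139 of the 140 genes and 82 of the 87. Of the 139 the combined mean lay between both for 102, at or beyond the untreated mean for 35 and at or beyond the PGE2 mean for 2. Of the 82 these numbers were 55, 25 and 2. Against untreated cells 7 of the 140 were still called higher and none lower, namely Atox1, Capg, Ccl17, Fam129b, Ifitm2, S100a10 and Srgn, where 0.608% of all tested genes were called higher. Capg, an actin capping protein gene, stood at 72.6, 74.9, 114 and 131 CPM with the combined antagonists, 66.9, 61.4, 81.4 and 115 CPM with PGE2 and 0, 43.4, 46.8 and 51.5 CPM untreated, so that it overlapped the PGE2 range. Its call against untreated cells (1.141 ± 0.30, adjusted p = 0.0383) was lost in 8 alternatives. S100a10 and Srgn, a calcium-binding protein gene and a proteoglycan gene, were 0.64 and 0.56 above untreated cells (adjusted p = 0.00831 and 0.00855), where S100a10 had an adjusted p of 0.141 with library totals alone. Atox1, Fam129b and Ifitm2 lost their calls in 11, 10 and 9 of 16 alternatives. Of the 87, 6 were still lower than untreated, where 0.191% of all tested genes were called lower, among them Rassf4 (-1.20 ± 0.28, adjusted p = 0.00990, and 0.253 without untreated replicate C), and Manf was higher.

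Jup, which encodes the junction protein plakoglobin (chromosome 11, 100368958 to 100397763, minus strand), was above both reference groups. It stood at 96.8, 115, 131 and 88.7 CPM with the combined antagonists, at 30.9, 40.9, 31.3 and 48.3 CPM with PGE2 and at 0, 47.0, 18.7 and 25.7 CPM in untreated cells. No combined library overlapped either group. The change was 1.52 ± 0.32 from PGE2 (adjusted p = 0.000198) and 1.94 ± 0.34 from untreated cells (adjusted p = 0.000133), kept in all alternatives that could be run. With the EP2 and EP4 antagonists singly its means were 45.5 and 39.7 CPM. Gbp3, a guanylate-binding protein gene, was below untreated cells at 22.0, 18.7, 43.7 and 44.4 CPM against 65.4, 76.0, 93.7 and 82.9 CPM (-1.35 ± 0.32, adjusted p = 0.0114), with an adjusted p of 0.0886 without untreated replicate C, 0.0703 without combined replicate A and 0.0750 without combined replicate B.

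The combined antagonists were then compared with the EP2 and EP4 antagonists given singly at the same dose and time. Against the EP2 antagonist 123 genes were called (2.14%), 34 higher (0.591%) and 89 lower (1.55%), and against the EP4 antagonist 315 (5.47%), 118 higher (2.05%) and 197 lower (3.42%). By library totals these splits were 51 higher and 74 lower for EP2, and 186 higher and 172 lower for EP4, where the balance turned. Against PGE2 itself 24 genes were called with the EP2 antagonist (0.417%), 5 higher (0.0869%) and 19 lower (0.33%) or 6 and 12 by library totals, and 2 with the EP4 antagonist (0.0348%), 1 in each direction (0.0174% each). At an unadjusted p under 0.05 these were 538 and 337 genes. These comparisons share libraries and are given side by side. Leaving out EP2 antagonist D gave 72 calls and combined A gave 78 calls for the first, and leaving out EP4 antagonist C gave 205 for the second.

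Relative to the PGE2 mean, the 12 genes with the largest decrease stood at 0% to 12.5% with the combined antagonists (median 8.99%), at 2.02% to 91.5% with the EP2 antagonist (median 39.6%) and at 35.96% to 104% with the EP4 antagonist (median 79.8%). These genes were chosen by the comparison of the combined antagonists with PGE2, which favours a low combined value, so the values are a description. On the genes chosen from the conditioned media the same groups scored 18.5%, 69.2% and 89.1%. Crem averaged 23.5 CPM with the combined antagonists, 69.4 CPM with the EP2 antagonist and 160 CPM with the EP4 antagonist. The difference from the EP4 antagonist passed (-2.50 ± 0.49, adjusted p = 0.00132) and that from the EP2 antagonist did not (-1.55, 95% interval -2.60 to -0.51, adjusted p = 0.126). Il1b averaged 23.0 CPM with the combined antagonists and 30.4 CPM with the EP2 antagonist, a difference of -0.47 (95% interval -1.27 to 0.33) that did not pass. Glipr1, at 579 CPM, was above both single antagonists, at 320.4 CPM with the EP2 antagonist (0.86 ± 0.15, adjusted p = 7.89e-06) and 238 CPM with the EP4 antagonist (1.21 ± 0.16, adjusted p = 5.71e-09). Nr4a2 at 4.81 CPM was under both, at 28.3 CPM (-2.44 ± 0.59, adjusted p = 0.00633) and 49.4 CPM (-3.52 ± 0.55, adjusted p = 5.69e-07).

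**Figure D5:**
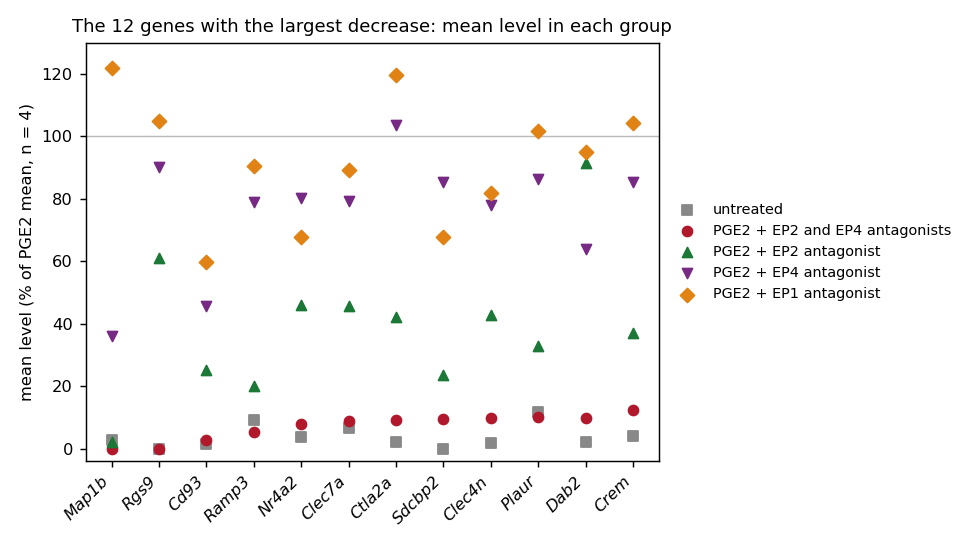
Mean level of the 12 genes with the largest decrease, as a percentage of the PGE2 mean (line at 100%), in untreated cells and with the combined, EP2, EP4 and EP1 antagonists (means of 4 libraries). The combined antagonists lie at or under 12.5% for all 12, the EP2 antagonist spans 2.02% to 91.5% and the EP4 antagonist 35.96% to 104%.

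For a few genes the combined change differed from the sum of the single changes. On the log2 scale 5 genes (0.0869%; 412 at an unadjusted p under 0.05) differed from the sum of the EP2 and EP4 antagonist effects, an analysis added after seeing the data, and all 5 were lower. They were Ifitm2, Ifitm1, Id1, Rhoq and Dab2. Ifitm2 averaged 527 CPM with the combined antagonists, 1170 CPM with the EP2 antagonist, 1413 CPM with the EP4 antagonist and 1334 CPM with PGE2. The single changes were -0.19 and 0.11 and the combined change -1.34, a difference from the sum of -1.26 ± 0.19 (adjusted p = 5.14e-06) whose call was kept in all 22 alternatives. For Dab2 the means were 6.34, 59.3, 41.4 and 64.9 CPM in the same order, with a difference from the sum of -2.73 ± 0.61 (adjusted p = 0.0141) whose call was lost in 6 alternatives. Rhoq, a small GTPase gene, averaged 16.2, 77.8, 86.0 and 95.5 CPM (-2.12 ± 0.46, adjusted p = 0.0123, lost in 5). Id1, which encodes an inhibitor of helix-loop-helix factors, averaged 197, 321, 358 and 281 CPM, with single changes of 0.19 and 0.40 and a combined change of -0.50 (difference from the sum -1.09 ± 0.23, adjusted p = 0.00866, lost in 3), and Ifitm1 differed by -0.76 ± 0.15 (adjusted p = 0.00590, lost in 2). Over the alternatives 3 to 10 genes were called, with 3 when EP2 antagonist A, EP4 antagonist C, combined A or combined C was left out.

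Since the treatment entry names the compound of the EP1 antagonist group, the same was done with EP1 in place of EP2. The EP1 antagonist against PGE2 had no called gene by edgeR (0%) or DESeq2, with 276 at an unadjusted p under 0.05. The combined antagonists against the EP1 antagonist had 617 called genes (10.7%), 281 higher (4.88%) and 336 lower (5.84%), and 331 higher and 318 lower by library totals. From the sum of the EP1 and EP4 antagonist effects the combined effect differed in 139 genes (2.42%), 44 higher (0.765%) and 95 lower (1.65%), with 84 to 149 over the alternatives. It was 87 without EP1 antagonist C or EP4 antagonist C and 92 without combined B. Crem, Junb, Nfil3, Nr4a2 and Pde4b of the 10 tested cAMP targets were among the lower ones, where Junb lost its call in 16 of 22 alternatives, while none of the 10 was called as different from the sum of EP2 and EP4. A missing call does not show that an effect equals the sum. For Crem the combined change was -3.02, and the EP1, EP2 and EP4 antagonist changes were 0.02, -1.47 and -0.52. Which compounds the cells received was not tested by these values.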

How the data were processed

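RNA of sorted cDC1 was sequenced at its 3′ ends in bulk with unique molecular identifiers. The table deposited by the authors holds whole-number counts of these identifiers per gene, made with the Drop-seq pipeline on GRCm38 with Ensembl release 75, per the labels' protocols. The submitters' processing notes name DESeq2 1.14.1 and GRCm38.p6. The aligner and strand setting: not given in the sources used here. Overlapping genes and antisense partners may thus share reads. Paralogs (Ifitm, Bcl2a1, Csf2rb and Csf2rb2, H2 genes) can share reads.

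Of 23136 lines 1 held a text entry and was left out, and 20 lines carried symbols turned into dates (0.105% of counts). Library totals ran from 42666 to 438491 over the series. A count of 0 allows up to 3 counts, which covers counting error only. Replicate pairs of the untreated, PGE2 and combined groups differed by more than counting noise (chi-square per degree of freedom 1.43 to 2.08 over 18 pairs).

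The 36 libraries at 4 h, 9 groups of 4, were fitted together in edgeR 4.0.16 under R 4.3.3, using its quasi-likelihood F-test, TMM factors, robust dispersions and the filterByExpr filter. Every adjusted p is from that test with Benjamini-Hochberg adjustment over 5754 genes, and a gene was called at 0.05 or less. Fold changes are log2 with the SE of the fit, and 95% intervals use its degrees of freedom. The score takes, on the log2 scale with a prior count of 2, the mean of the 140 genes that control CM raised over PGE2-deficient CM and subtracts the mean of the 87 it lowered. Folds against a group at 0 use 3 counts over the group.

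The genes named are the 12 called genes with the largest decrease and the 12 with the largest increase at a mean of at least 20 CPM, the 6 with the smallest adjusted p, up to 6 of each other comparison and members of 27 gene lists. Id1, Fam129b, Atox1, S100a10 and Srgn, which stand outside that rule, were named after their values were seen. A few genes that the rule takes are not reported here. The members and lists were chosen with earlier results of these data known. Alternatives were RLE factors, library totals alone, DESeq2 1.42.0, other filters, a replicate block, only the groups compared, and leaving out libraries. Promoter windows come from RefSeq and gene positions from GENCODE M21.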

Additional observations from a re-analysis of the deposited data

Results flagged for a closer look

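Within groups of 4, a library was set apart by Dixon's test at the 95% level, from its gap to the nearest other over the group's range. Of 67 such groups examined (the genes named by size or by smallest adjusted p, with PGE2 or the combined antagonists, and the score in each group) 6 stood out, where chance gives about 1 in 20. Nr4a2 was at 14.6 CPM in combined library C against 0 to 2.47 CPM in the others, and Clec4n at 12.3 CPM in combined library D against 2.20 to 3.12 CPM. Fdps was at 178 CPM in combined library B against 111 to 121 CPM. Pdgfa had 0 CPM in PGE2 library A against 12.1 to 12.5 CPM. The response score of PGE2-deficient CM library B was 48.4% against -2.51% to 4.29% in the other libraries of that group. EP3 antagonist library B scored 50.0% against 96.8% to 99.4%. That group enters no comparison here, but its libraries are part of the shared fit and of its estimate of spread.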

How the results depend on the processing

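Between the combined antagonists and PGE2, 402 to 643 genes were called over the alternatives against 548, and none of the 548 changed its direction where it was tested (498 of 548 with only the groups compared, 547 with at least 10 counts in 4 libraries, all in the others). DESeq2 called 452, a run without the filter on low counts 407 and library totals alone 643. With the replicate block 555 were called, of which 537 were among the 548. Deviations of same-lettered combined and PGE2 libraries correlated at -0.00789 to 0.0363, and of other letters at -0.0425 to 0.0463. For combined and untreated libraries same letters gave 0.0238 to 0.0751 and other letters -0.11 to 0.0444. Of 8 libraries 3 and 5 correlated best with their own letter in these pairs of groups. Correlations this small cannot decide whether the letters pair the samples. Leaving out 1 library gave 402 to 487. The 46 calls against untreated cells depended more on the choice: 29 with library totals alone, 24 without the shallow libraries EP4 antagonist A and untreated A, 75 with only the groups compared, 62 (46 higher, 16 lower) with the replicate block, and 15 (without untreated C) to 40 with 1 library left out, where untreated A gave 22, untreated B 21, and combined B, C and D 27, 22 and 25. Calls against the EP2 antagonist ran from 72 to 121 and those against the EP4 antagonist from 205 to 284 with 1 library left out. With only the groups compared 67 genes were higher and 115 lower than with the EP2 antagonist. The replicate block gave 42 and 99, and the run without the filter 22 and 63. For the EP4 antagonist these splits were 138 and 179, 133 and 198, and 94 and 154. The sum comparisons were added after seeing the data. The cause of these changes was not tested. Genes at a few counts per library, such as the prostaglandin receptors, are limited by depth.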
